A study of Mus musculus with 12 samples.

Results

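The PRDM genes encode transcriptional regulators with a PR domain, which is related to the SET domain of histone methyltransferases, and in most members an array of zinc fingers that can bind DNA. Of the 54146 genes quantified, 7 were chosen by symbol as the subject of this report. They are *Prdm10*, the gene targeted in the study, and *Prdm2*, *Prdm4*, *Prdm9*, *Prdm11*, *Prdm14* and *Prdm15*, and each symbol matched a single gene. A further 8 genes of the mouse family (15 with the members) are given more briefly for comparison. All members were quantified with a posterior SD of the count of at most 0.05, so that RSEM shared almost none of their reads with other genes.

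RNA was sequenced from mouse embryonic stem cells (mESCs) of strain C57BL/6 and genotype Prdm10F/F; Rosa26-CreERT2, in which exon 5 of both *Prdm10* alleles lies between loxP sites. CreERT2, a Cre recombinase that 4-hydroxytamoxifen (OHT) activates, is expressed from the ubiquitously active Rosa26 locus and is present in every group. Cells received 50 nM OHT or an equal volume of ethanol (EtOH) for 24 h and were harvested at Day 2 or Day 4, which gave the groups Day 2 EtOH, Day 2 OHT, Day 4 EtOH and Day 4 OHT with 3 libraries each. Floxed control cells without OHT therefore carry the transgene too, but there was no group with OHT and unfloxed alleles, so that an effect of OHT or Cre alone cannot be told apart from that of the deletion. The labels do not say whether the 3 libraries of a group came from separate lines or cultures, and the p-values measure only the spread between them.

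The libraries held between 35017667 and 41409992 expected counts, which are estimates of reads per gene. The stem cell markers *Pou5f1*, *Sox2*, *Nanog*, *Klf4*, *Esrrb* and *Zfp42* together reached at least 800 TPM (a level per transcript length, scaled to the sum over all genes of a library) in every library. The 4 fibroblast markers, chosen because mESC lines are derived on feeder cells, summed to between 0.81 and 3.15 TPM, and *Col1a1*, *Col1a2* and *Col3a1* each stayed at or below 0.27 TPM. This fibroblast sum was lowest in Day 4 OHT (0.81 to 1.36 TPM, against 2.19 to 3.06 TPM in Day 4 EtOH), mostly through *Thy1*, and its part in the results below was not tested. The 7 germ layer markers summed to at most 3.56 TPM.

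PRDM10 is a zinc finger protein of the same subfamily as PRDM15, and its DNA binding was probed in the study with a pair of designed double-stranded oligonucleotides. They are shown because they spell the letters that were altered to test binding, which differ at 8 of 28 positions (capitals).
WT probe: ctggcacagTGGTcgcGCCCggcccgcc
MUT probe: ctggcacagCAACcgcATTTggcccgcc
Read as a motif, the altered letters of the WT probe give TGGTNNNGCCC, where N is any base. On both strands, 476 of 32851 RefSeq promoter windows of GRCm38.p6 (1.45%) held it, each window covering 250 bases before to 50 after a start. No window of a PRDM gene did, among the 17 windows of the family genes given here that are in that table (5 of the 7 members). A looser form, TGGTNNNNNCC, which also matches every copy of the stricter one, was chosen after the *Prdm10* sequence had been seen and occurs in 13.8% of all windows. It was found in 1 window of *Prdm10* and 1 of *Prdm12*. The study derived its own motif by a de novo search of PRDM10-bound sites, and that motif was not searched for here.

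*Prdm10* (ENSMUSG00000042496.18) runs from 31280538 to 31381723 on chromosome 9 (GRCm38, plus strand), and the study's own list of PRDM10-bound genes, drawn from ChIP-seq and not from these libraries, contains *Prdm10* and, of the other family genes given here, only *Prdm16*. Under the study's rule, a peak anywhere along a gene or close to either end puts the gene on the list. Only membership was read here, not the place of a peak. The sequence at the upstream start of *Prdm10* is shown because that start is the one whose window matched the looser form. The first line runs from 250 bases before the RefSeq start (31280549) to the end of the match, and the second covers the first 300 bases of intron 1 of the longest transcript, read from the GENCODE sequence of the overlapping opposite-strand transcript. Capitals mark the 3 matches to the looser form, of which the one at 31280876 to 31280886 lies on the plus strand and those at 31280559 to 31280569 and 31280924 to 31280934 on the minus strand.
Prdm10 start, chr9:31280299-31280569, plus strand: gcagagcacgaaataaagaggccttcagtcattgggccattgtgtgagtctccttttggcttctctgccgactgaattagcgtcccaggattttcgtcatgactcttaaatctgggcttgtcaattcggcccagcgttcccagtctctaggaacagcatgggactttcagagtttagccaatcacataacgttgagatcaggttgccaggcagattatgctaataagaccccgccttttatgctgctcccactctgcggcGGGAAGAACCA
Prdm10 intron 1, chr9:31280667-31280966, plus strand: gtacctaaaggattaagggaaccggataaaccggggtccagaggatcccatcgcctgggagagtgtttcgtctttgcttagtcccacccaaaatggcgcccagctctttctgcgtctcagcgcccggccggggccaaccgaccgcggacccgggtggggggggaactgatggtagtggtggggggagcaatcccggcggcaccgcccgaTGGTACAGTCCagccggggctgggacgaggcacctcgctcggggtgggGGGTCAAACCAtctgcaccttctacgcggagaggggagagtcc
The stricter form had 0 matches in this stretch of intron 1. How often other introns match the looser form was not determined. Such matches describe letters, and whether PRDM10 binds at these positions was not examined here.

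The part of *Prdm10* that OHT is meant to remove is exon 5. It is annotated in a form of 208 nt (31325627 to 31325834) and a form of 154 nt (31325681 to 31325834). Exon 4 (31318512 to 31318571) and the longer form of exon 5 are shown with the sites of the study's quantitative PCR primers in capitals, the forward primer in exon 4 and, as its reverse complement, the reverse primer in exon 5.
Exon 4, chr9:31318512-31318571, plus strand: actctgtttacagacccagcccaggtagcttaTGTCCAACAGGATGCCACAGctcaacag
Exon 5, chr9:31325627-31325834, plus strand: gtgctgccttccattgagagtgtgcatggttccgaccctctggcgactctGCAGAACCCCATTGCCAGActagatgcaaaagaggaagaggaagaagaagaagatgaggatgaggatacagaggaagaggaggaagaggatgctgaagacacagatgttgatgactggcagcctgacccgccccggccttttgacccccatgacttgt
The first 4 bases of the reverse primer site lie upstream of the 154 nt form, so that the whole site is present in 3 of the 5 annotated transcripts and absent from the longest. The product between the primers is 97 nt long.

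Both forms leave a remainder of 1 base when divided by 3, so that joining exon 4 to exon 6 of the transcripts with exon 5 shifts the reading frame. In the longest transcript (6772 nt, 22 exons), 98 codons precede exon 5. Translated in silico without that exon, its reading frame ended after 138 codons, of which 40 followed the new junction, against 1115 codons with exon 5. None of the 5 transcripts (0) joins the exons on either side of exon 5 directly. The transcript of 3408 nt, annotated as protein coding, has no exon 5. It joins exon 4 to an exon that begins further upstream than exon 6 of the others, and its reading frame was not translated here. Exon 5 makes up 2.27% of the longest transcript and 5.91% to 10.7% of the other 3 that hold it. Reads per exon were not analysed here.

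**Figure D1:**
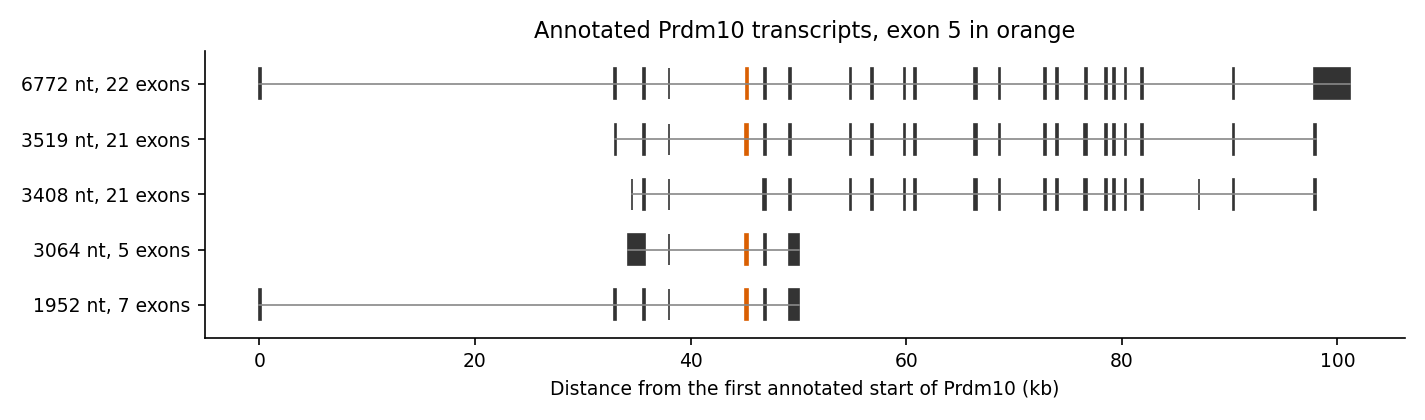
The 5 annotated *Prdm10* transcripts (GENCODE vM21), 1 per row and named by length and number of exons, against distance from the first annotated start in kb. Boxes are exons, with exon 5 in orange; it is present in 4 transcripts and absent from the one of 3408 nt, and the longest is the one with the wide exon at the right-hand end.

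*Prdm10* transcript was more abundant in the libraries labelled OHT on both days. Its normalised counts (read counts divided by the library's size factor) at Day 2 were 767, 821 and 815 in EtOH and 2080.2, 2225 and 2213 in OHT. At Day 4 they were 821, 875 and 911 in EtOH and 1982, 2089.6 and 1965 in OHT. The lowest OHT library thus lay above the highest EtOH library on each day. How many of all genes separate in this way by counts was not determined, for this or any later gene.

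The log2 fold change was 1.44 at Day 2 (171% higher, SE 0.07, 95% interval 1.31 to 1.57, DESeq2 adjusted p = 1.32e-105) and 1.21 at Day 4 (131% higher, SE 0.06, 95% interval 1.09 to 1.33, DESeq2 adjusted p = 4.18e-83). Among genes with a mean normalised count above 100, 1 of 11642 had a larger value at Day 2 and 26 of 11552 at Day 4. A count over the whole gene lies almost entirely outside the deleted exon and so checks neither the deletion nor the labels. The study reported that recombination after OHT was verified by other assays, in DNA, in transcript of the deleted exon and in PRDM10 protein. It also reported that PRDM10 binding peaks were lost or strongly reduced after OHT. The data of those assays were not analysed here. Each direction below compares libraries labelled OHT with libraries labelled EtOH.

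Per transcript length, *Prdm10* stood at 3.72, 3.88 and 4.12 TPM in Day 2 EtOH and at 9.97, 10.6 and 9.85 TPM in Day 2 OHT. At Day 4 the levels were 4.32, 4.71 and 4.60 TPM in EtOH and 9.05, 9.56 and 9.27 TPM in OHT. The ratio of the mean TPM, OHT over EtOH, was 2.596 at Day 2 and 2.045 at Day 4 (two-sided exact permutation test, p = 0.1 for each, the smallest that 3 against 3 libraries allow).

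The effective length of a gene is the average usable length of the transcripts RSEM assigned its reads to. For *Prdm10* it was 4256, 4437 and 4242 nt in Day 2 EtOH and 4768, 4737 and 4817 nt in Day 2 OHT. At Day 4 it was 4416, 4339 and 4486 nt in EtOH and 4960.1, 4888 and 4862 nt in OHT. The groups did not overlap on either day.

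The mean difference in effective length was 462 nt (10.7%) at Day 2 and 490 nt (11.1%) at Day 4, each with a two-sided exact permutation p = 0.1, the smallest possible. An effective length higher in all OHT than in all EtOH libraries was found for 7.41% of the 9981 tested genes with several transcripts at Day 2, and for 11.3% of 9893 at Day 4. *Prdm10* was the 1 member with no overlap on either day. Mean lengths of *Prdm2*, *Prdm4*, *Prdm11* and *Prdm15* moved by less than 5% with overlapping libraries, those of *Prdm9* differed by -7.2% at Day 2 and -18.7% at Day 4 with overlap, and *Prdm14* has a single transcript.

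Only the longest *Prdm10* transcript exceeds 3519 nt, so that the effective length bounds its share. With the difference between length and effective length taken from *Prdm14*, and with no transcripts beyond the 5 annotated, the longest transcript made up at least 27.0% to 33.0% and at most 50.8% to 54.8% of the *Prdm10* transcripts in the 3 libraries of Day 2 EtOH. In Day 2 OHT the bounds were 42.3% to 44.7% and 61.0% to 62.7%. At Day 4 they were 30% to 34.5% and 52.8% to 55.8% in EtOH, and 46.1% to 49.1% and 63.6% to 65.6% in OHT. The ranges that the bounds leave overlap between the groups, so that the share itself was not resolved.

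**Figure D2:**
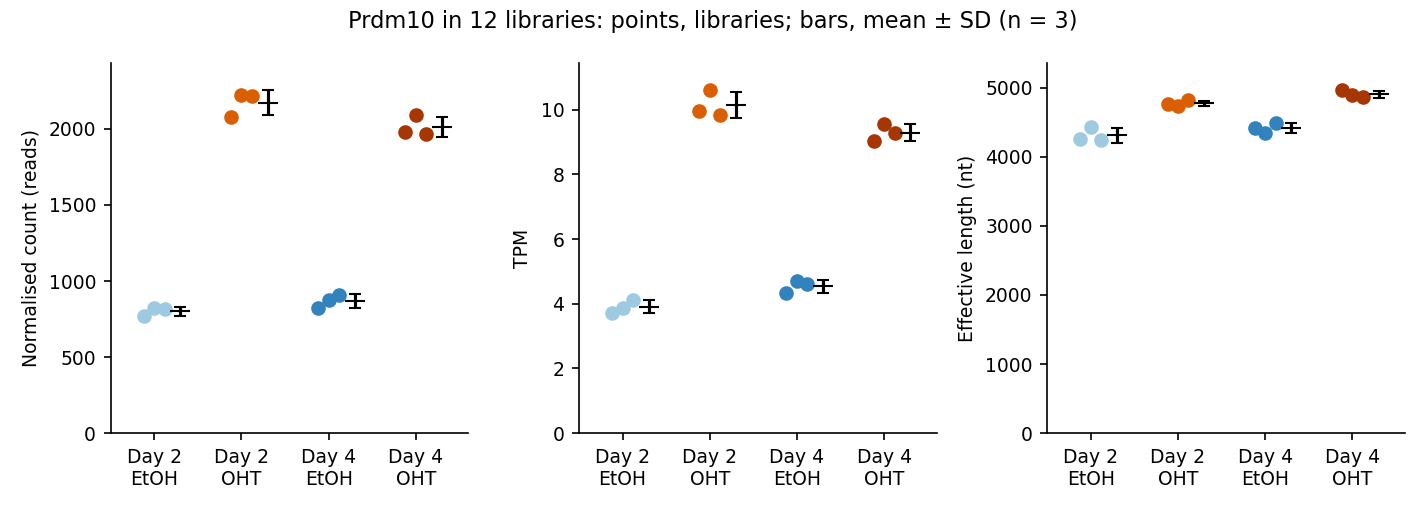
*Prdm10* by group as normalised count, TPM and effective length in nt, all axes starting at 0. Points are libraries and bars the mean ± SD (n = 3); in each panel all OHT points lie above all EtOH points of the same day, for example 9.05 to 9.56 TPM against 4.32 to 4.71 TPM at Day 4.

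From Day 2 to Day 4, *Prdm10* counts differed little within a treatment. The log2 change was 0.12 in EtOH (SE 0.08, DESeq2 adjusted p = 0.269) and -0.11 in OHT (SE 0.05, DESeq2 adjusted p = 0.101), and the libraries of the days overlapped in both. With edgeR, total counts or effective length offsets the OHT value was called (adjusted p of 0.0235, 0.0307 and 0.0477). The OHT effect was smaller at Day 4 than at Day 2 by 0.23 on the log2 scale (SE 0.08, interaction term in DESeq2, adjusted p = 0.0216). That call was lost in 7 of the 12 fits that left out a library, namely without Day2_EtOH replicate 1, Day2_OHT replicate 2 or 3, Day4_EtOH replicate 2 or 3, or Day4_OHT replicate 1 or 3 (DESeq2 adjusted p from 0.0546 to 0.0984).

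Of the 3 neighbours of *Prdm10* that were tested, *St14* was called higher at Day 4, *Nfrkb* lower at Day 4 and *Aplp2* lower on both days. Over all genes tested, 9.23% were called higher and 10.8% lower at Day 2. At Day 4 these shares were 23.6% and 21.7%. *Nfrkb*, 4.5 kb downstream, had log2 fold changes of -0.03 at Day 2 (DESeq2 adjusted p = 0.775) and -0.22 at Day 4 (DESeq2 adjusted p = 0.000133). *Aplp2*, 68.7 kb upstream, was lower on both days (-0.37 and -0.25, DESeq2 adjusted p = 3.06e-18 and 1.91e-12). *St14*, 148.7 kb upstream, had -0.00 at Day 2 (DESeq2 adjusted p = 0.994) and was higher at Day 4 (0.46, DESeq2 adjusted p = 5.01e-11).

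The lincRNA gene *4930517E14Rik*, read from the opposite strand across the *Prdm10* start, and *Tmem45b*, 44.5 kb downstream, had between 13 and 29 and between 13 and 41 expected counts per library. Both lie below the minimum mean of 100 and were not tested. Whether the strand was used in counting is not given in the sources used here. Without it, reads from the stretch where *Prdm10* and *4930517E14Rik* overlap cannot be told apart by strand. The highest posterior SD of the count was 0 for both genes, so that RSEM divided almost none of their reads between genes.

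Per transcript length, the 15 family genes ranged from *Prdm4* at the top to *Prdm8* near 0. In Day 2 EtOH the mean levels were 15.0 ± 0.32 TPM for *Prdm4*, 8.40 ± 0.298 TPM for *Prdm14*, 4.53 ± 0.386 TPM for *Prdm15*, 3.91 ± 0.384 TPM for *Prdm2* and 3.91 ± 0.201 TPM for *Prdm10* (SD, n = 3). The libraries of *Prdm4* and *Prdm14* did not overlap with the next gene in that order, whereas *Prdm15*, *Prdm2*, *Prdm10*, *Prdm16* and *Zfp408* each overlapped with at least 1 neighbour in the order. *Prdm10* shared rank 4 of the 15 with *Prdm2* in Day 2 EtOH and had rank 5 in Day 4 EtOH and rank 2 in both OHT groups, and in the OHT groups its libraries overlapped with neither neighbour.

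*Prdm11* (0.657 ± 0.0981 TPM in Day 2 EtOH) and *Prdm9* (0.60 ± 0.0608 TPM, n = 3 for both) were the lowest members. *Mecom*, *Prdm6*, *Prdm8*, *Prdm12* and *Prdm13*, which act in blood stem cells, smooth muscle, neurons, nociceptors and spinal cord, had at most 25 expected counts in any library and were not tested.

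**Figure D3:**
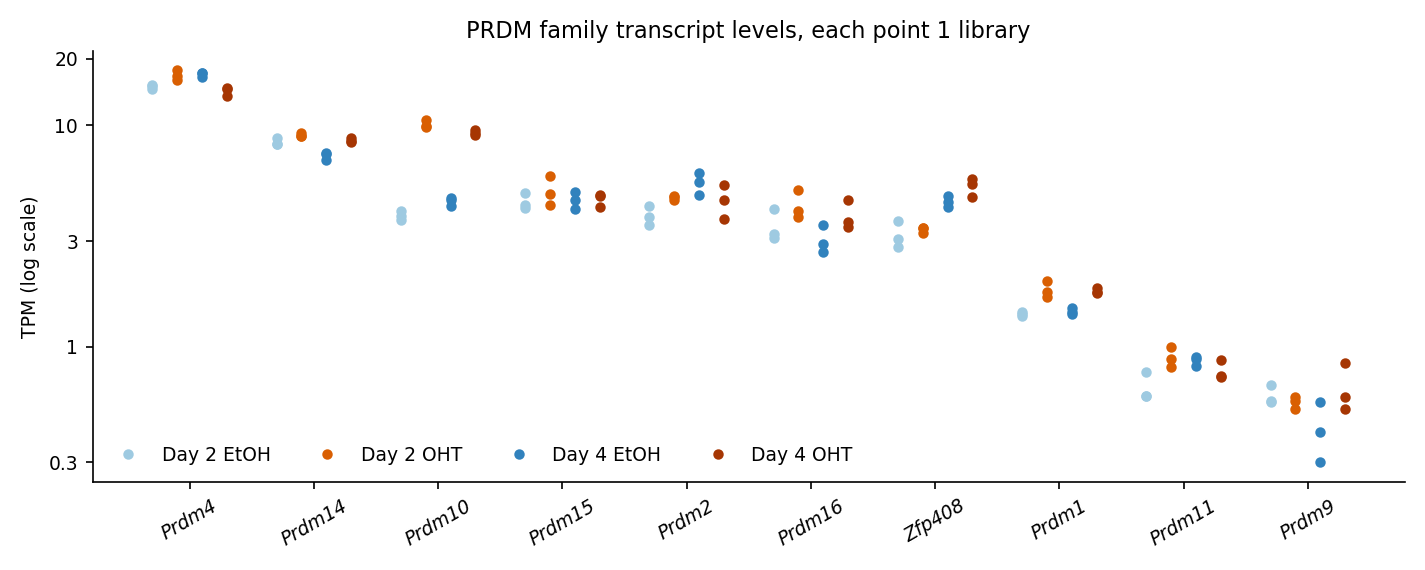
TPM on a log scale of the 7 members and the 3 other family genes above the count minimum, each point 1 library, coloured by group. The OHT points of *Prdm10* (9.05 to 10.6 TPM) stand above its EtOH points (3.72 to 4.71 TPM) on both days.

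At Day 2, 2 of the 6 members above the count minimum were called, both higher in OHT (*Prdm10* and *Prdm2*), and none (0) lower. Over all 11642 genes tested, 9.23% were called higher and 10.8% lower. The median log2 fold change of the 6 was 0.18, against -0.03 over all genes tested. At Day 4, 4 of 6 were called, *Prdm10* and *Prdm14* higher and *Prdm2* and *Prdm4* lower, where the background was 23.6% higher and 21.7% lower, and the medians were 0.01 and 0.01. Day 2 directions of the background depended on scaling, with 46.1% of the called genes higher in the main fit and 68.5% with total counts. *Prdm9* was below the minimum in each comparison.

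*Prdm2* encodes the RIZ protein, a histone methyltransferase known as a tumour suppressor. It moved in opposite directions on the days. At Day 2 its normalised counts were 1154, 1212 and 1298 in EtOH and 1392, 1487 and 1487 in OHT. At Day 4 they were 1551, 1530.5 and 1485 in EtOH and 1256, 1166 and 1390.3 in OHT. On neither day did the groups overlap, with OHT above EtOH at Day 2 and below it at Day 4.

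The log2 fold change of *Prdm2* was 0.25 at Day 2 (19.3% higher, SE 0.07, DESeq2 adjusted p = 0.00269) and -0.26 at Day 4 (fell by 16.6%, SE 0.07, DESeq2 adjusted p = 0.000407). The effects differed by -0.51 (SE 0.09, interaction term in DESeq2, adjusted p = 7.4e-07). In EtOH it was higher at Day 4 than at Day 2 (0.32, DESeq2 adjusted p = 7.63e-06), and in OHT it was lower (-0.19, DESeq2 adjusted p = 0.0179). The OHT call was lost without Day2_OHT replicate 2 or 3 or Day4_OHT replicate 1 or 2 (DESeq2 adjusted p from 0.0596 to 0.185), with effective length offsets (-0.06, adjusted p = 0.677) and with the replicate number as a block (adjusted p = 0.059). The Day 2 call was lost without Day2_EtOH replicate 1 (DESeq2 adjusted p = 0.0651), and with effective length offsets both day calls were lost (adjusted p = 0.0691 and 0.0577). The effective length of *Prdm2* itself ranged widely within groups, from 5298 to 6957 nt in Day 4 OHT, and its TPM overlapped between the Day 4 groups (4.85 to 6.11 in EtOH and 3.77 to 5.37 in OHT).

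*Prdm4*, whose product acts with the arginine methyltransferase PRMT5, was the most abundant member. Its normalised counts were 2265, 2307 and 2234 in Day 2 EtOH, 2432, 2348 and 2383 in Day 2 OHT, 2386, 2262 and 2427 in Day 4 EtOH, and 1997, 2013 and 1906 in Day 4 OHT. OHT lay slightly above EtOH at Day 2 and below it at Day 4, without overlap on either day. The share of all genes with such separation was not determined. The log2 fold change was 0.07 at Day 2 (SE 0.05, 95% interval -0.03 to 0.18, DESeq2 adjusted p = 0.369) and -0.26 at Day 4 (fell by 16.5%, SE 0.05, DESeq2 adjusted p = 2.71e-06). The difference between the days was -0.33 (SE 0.06, interaction term in DESeq2, adjusted p = 1.63e-06).

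*Prdm14* maintains naive pluripotency, in which it represses FGF receptor and DNA methyltransferase genes with the corepressor CBFA2T2. Its counts were 961, 1002 and 923 in Day 2 EtOH and 948, 986 and 1005 in Day 2 OHT, which overlapped. At Day 4 they were 777, 767 and 742 in EtOH and 936, 902 and 893 in OHT, which did not. The log2 fold change was 0.03 at Day 2 (95% interval -0.12 to 0.17, DESeq2 adjusted p = 0.866) and 0.25 at Day 4 (19.3% higher, SE 0.07, DESeq2 adjusted p = 0.0018).

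In EtOH, *Prdm14* fell by 0.34 on the log2 scale from Day 2 to Day 4 (SE 0.07, DESeq2 adjusted p = 3.97e-05), while in OHT the change was -0.10 (DESeq2 adjusted p = 0.251). The treatment effects differed by 0.23 (SE 0.09, interaction term in DESeq2, adjusted p = 0.0319). This was no longer called with total counts (adjusted p = 0.0853), nor with the replicate number as a block (adjusted p = 0.0825), nor in 8 of the 12 fits without a library, which left out Day2_EtOH replicate 1 or 2, Day2_OHT replicate 1 or 2, Day4_EtOH replicate 2 or 3, or Day4_OHT replicate 1 or 2 (DESeq2 adjusted p from 0.0606 to 0.133).

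*Prdm15*, the closest relative of *Prdm10* and a regulator of signalling genes in naive mESCs, was not called in any comparison. Its counts were 892, 831 and 849 in Day 2 EtOH, 833, 948 and 999.9 in Day 2 OHT, 918, 882 and 866 in Day 4 EtOH, and 965, 969 and 949 in Day 4 OHT. The groups overlapped at Day 2, and at Day 4 OHT lay just above EtOH. The 95% intervals of the log2 fold change, -0.05 to 0.27 at Day 2 and -0.02 to 0.24 at Day 4, leave out a change of the size seen for *Prdm10*.

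*Prdm11*, a member without the zinc finger array, had between 100 and 150 expected counts per library. Its normalised counts were 104, 96.3 and 109 in Day 2 EtOH and 145, 129.5 and 129 in Day 2 OHT. At Day 4 they were 131, 148 and 134 in EtOH and 128, 128 and 130.2 in OHT. OHT lay above EtOH at Day 2 and just below it at Day 4, with no overlap on either day. How often the counts of all genes separate in this way was not determined. The log2 fold change at Day 2 was 0.38 (SE 0.18, DESeq2 adjusted p = 0.14), which edgeR called (0.40, adjusted p = 0.0245), and the Day 4 value was -0.10 (SE 0.17, DESeq2 adjusted p = 0.712). The interaction term was -0.48 (SE 0.21, DESeq2 adjusted p = 0.0807), also called by edgeR (-0.47, adjusted p = 0.0145).

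*Prdm9*, which marks meiotic recombination hotspots, had mean normalised counts of 34.7 ± 2.83 and 28.4 ± 2.01 in EtOH and OHT at Day 2, and 27.9 ± 4.06 and 35.7 ± 3.22 at Day 4 (SD, n = 3). OHT lay below EtOH at Day 2 and above it at Day 4, with no overlap on either day. How often all genes separate so was not determined, and *Prdm9* had only 23 to 42 expected counts per library. The 95% intervals of its log2 fold change were -0.97 to 0.39 and -0.33 to 1.04, which hold both 0 and changes of the size seen for *Prdm2* and *Prdm4*, so that a difference of that size was not detectable at this depth.

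**Figure D4:**
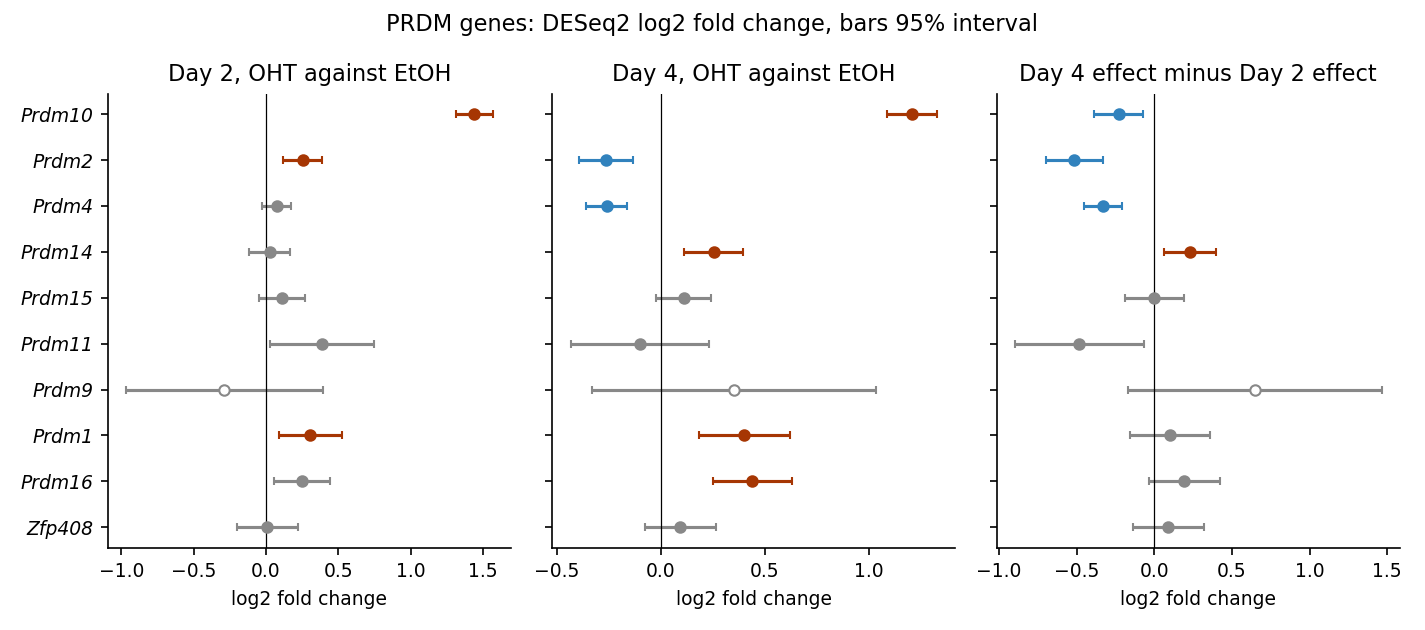
DESeq2 log2 fold change of 10 PRDM genes at Day 2, at Day 4 and for the difference between the days, with 95% intervals. Red points were called higher, blue points lower and grey points not called, and the open points of *Prdm9* lie below the count minimum; *Prdm10* stands at 1.44 and 1.21, whereas at Day 2 and Day 4 the other members lie between -0.29 and 0.38.

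The interaction of treatment and day was called for 4 of 6 members, 1 higher (*Prdm14*) and 3 lower (*Prdm2*, *Prdm4* and *Prdm10*), where 18.9% of 11612 genes were called higher and 13.6% lower. Between the days, 2 of 6 members were called in EtOH, *Prdm2* higher and *Prdm14* lower at Day 4, with 20.6% and 20.5% of all 11570 genes. In OHT, 2 of 6 were called, *Prdm2* and *Prdm4* lower at Day 4, with 23.1% of 11633 genes lower and 30.9% higher. These comparisons share libraries with those between the treatments.

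Of the 8 other family genes, 3 passed the count minimum. *Prdm1*, which encodes the repressor BLIMP1 of germ cell and plasma cell fate, was higher at Day 2 (0.31, SE 0.11, DESeq2 adjusted p = 0.0364) and Day 4 (0.40, SE 0.11, DESeq2 adjusted p = 0.00143), with 294 to 307 normalised counts in Day 2 EtOH and 367 to 374 in Day 2 OHT. The Day 2 call was lost in each of the 6 fits without a library (DESeq2 adjusted p from 0.0855 to 0.116). *Prdm16*, a regulator of brown fat and blood stem cells, had 0.25 at Day 2 (DESeq2 adjusted p = 0.0599) and was higher at Day 4 (0.44, SE 0.10, DESeq2 adjusted p = 3.85e-05), from 354 to 374 in EtOH and 486 to 498 in OHT.

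*Zfp408*, the mouse counterpart of PRDM17, was not called for treatment (0.01 at Day 2 and 0.10 at Day 4, with DESeq2 adjusted p of 0.979 and 0.434). The median of these 3 genes was 0.25 at Day 2 (all genes, -0.03) and 0.40 at Day 4 (all genes, 0.01).

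Partners and targets attributed to members were examined from a list of 13 genes, 12 of them above the count minimum. At Day 2, 3 of 12 were called higher (*Cbfa2t2*, *Fgfr1* and *Dnmt3l*) and none (0) lower, where 9.23% of all genes tested were called higher and 10.8% lower. At Day 4, 4 were higher (*Dnmt3l*, *Spry1*, *Zcwpw1* and *Ewsr1*) and 3 lower (*Dnmt3a*, *Dnmt3b* and *Hells*), where the background was 23.6% higher and 21.7% lower. The median log2 fold change of the 12 was -0.01 at Day 2, where that of all genes was -0.03, and -0.06 at Day 4, where it was 0.01.

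*Cbfa2t2*, the corepressor of PRDM14, had 0.28 at Day 2 (SE 0.05, DESeq2 adjusted p = 2.2e-07) and 0.06 at Day 4 (DESeq2 adjusted p = 0.28). Among genes that PRDM14 is known to repress, the cofactor gene *Dnmt3l* had 0.15 at Day 2 (DESeq2 adjusted p = 0.0199) and 0.55 at Day 4 (SE 0.04, DESeq2 adjusted p = 2.76e-45), whereas the methyltransferase gene *Dnmt3b* had -0.07 (DESeq2 adjusted p = 0.389) and a Day 4 value of -0.48 (SE 0.04, DESeq2 adjusted p = 3.19e-33). *Fgfr1*, a receptor that drives exit from the naive state, had 0.30 at Day 2 (SE 0.06, DESeq2 adjusted p = 4.24e-05) and -0.11 at Day 4 (DESeq2 adjusted p = 0.195), and *Fgfr2* was not called on either day. The Day 2 call of *Dnmt3l* was lost without Day2_EtOH replicate 2 or 3 or Day2_OHT replicate 2 or 3 (DESeq2 adjusted p from 0.0641 to 0.128).

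*Dnmt3a* was lower in OHT than in EtOH at Day 4, by 0.64 on the log2 scale (SE 0.03, DESeq2 adjusted p = 5.38e-74), the most negative value on the list. Its counts were 9748, 9293 and 9512 in Day 4 EtOH and 6003, 6284 and 6074 in Day 4 OHT. At Day 2 they were 4753 to 4869 in EtOH and 4528 to 4919 in OHT. From Day 2 to Day 4 *Dnmt3a* was called higher in EtOH (0.99, DESeq2 adjusted p = 4.55e-152) and, by less, in OHT (0.36, DESeq2 adjusted p = 2.17e-15). *Spry1*, a feedback inhibitor of FGF signalling and a known PRDM15 target, had 0.01 at Day 2 (DESeq2 adjusted p = 0.966) and 0.42 at Day 4 (SE 0.12, DESeq2 adjusted p = 0.0023). *Rspo1*, the other PRDM15 target, had 25 to 43 expected counts and was not tested.

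*Prmt5*, whose product PRDM4 recruits, had -0.03 at Day 2 and -0.03 at Day 4 (DESeq2 adjusted p = 0.714 and 0.658). Of the 4 genes linked to PRDM9 in meiosis, *Zcwpw1*, a reader of its histone marks, had 0.34 at Day 4 (SE 0.08, DESeq2 adjusted p = 4.43e-05), *Ewsr1* 0.18 (DESeq2 adjusted p = 1.64e-07) and the remodeller gene *Hells* -0.14 (DESeq2 adjusted p = 0.00197), and *Cxxc1* was not called. The *Ewsr1* call was lost with effective length offsets (0.04, adjusted p = 0.439), and that of *Hells* with all 12 libraries in 1 fit (-0.13, adjusted p = 0.228). Of the partner and target genes, only *Ewsr1* is on the study's list of PRDM10-bound genes.

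**Figure D5:**
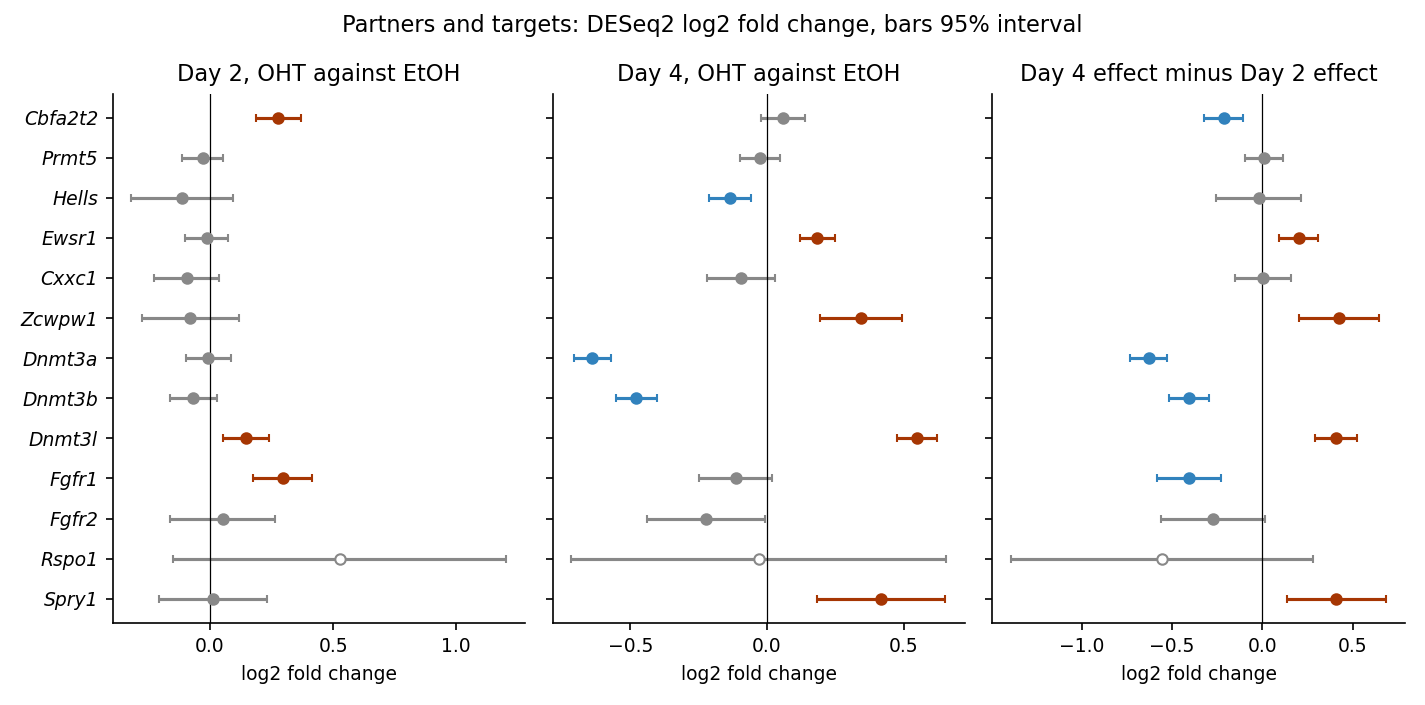
DESeq2 log2 fold change of 13 partner and target genes at Day 2, at Day 4 and for the difference between the days, with 95% intervals. Red points were called higher, blue lower and grey not called, and *Rspo1* (open) lies below the count minimum; the widest split is at Day 4, from -0.64 for *Dnmt3a* to 0.55 for *Dnmt3l*.

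The genes whose pattern over the 12 libraries was most like that of *Prdm10* were sought among 11615 others with a mean normalised count above 100, by the root mean square (RMS) difference of log2(normalised count + 1) after centring each gene on its own mean. The nearest was *Arl2*, a small GTPase gene (RMS 0.22, with log2 fold changes of 0.89 at Day 2 and 1.04 at Day 4). It was followed by *Rab3il1* (RMS 0.26), *Lrrc15* (RMS 0.29), *Rhbdd3* (RMS 0.31) and *Crispld1* (RMS 0.33), against a median of 0.69 over all genes compared. Their log2 fold changes lay between 0.58 and 0.87 at Day 2 and between 0.88 and 1.43 at Day 4, a direction that the choice by likeness to *Prdm10* in the same libraries largely fixed. *Arl2* and *Rhbdd3* are on the list of PRDM10-bound genes. The share of all genes compared that are on that list was not determined, so that no link between likeness and binding can be drawn. None of the 5 is a PRDM gene.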

How the data were processed

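Per the labels and the study's methods, stranded total RNA libraries were mapped by the authors to GRCm38.p6 with STAR (version 2.6.0c) and quantified with RSEM against GENCODE vM18. The deposited expected counts are RSEM estimates of reads per gene, and the deposited TPM and effective lengths come from the same run. The authors' tables of log2 fold changes, p-values and adjusted p-values from DESeq2 (version 1.22.2) were used for gene symbols only.

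Expected counts were rounded and tested over all genes with DESeq2 (version 1.42.0, R 4.3.3) by the Wald test. A gene was called when its adjusted p (Benjamini-Hochberg) was under 0.05 and its normalised counts averaged more than 100; 6 libraries entered each comparison and 12 the interaction. Printed normalised counts use size factors over all 12 libraries. Alternatives included edgeR (version 4.0.16). Effective lengths were compared by exact permutation with SciPy. The pipeline was tested on simulated data. Depth of 35017667 to 41409992 expected counts per library limits precision for *Prdm9* and *Prdm11*; reads without molecular identifiers are not independent molecules.

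Named genes were the members, other genes of the family (1 is not reported here), listed partners, the nearest 2 protein-coding genes on each side of *Prdm10*, overlapping genes, and the 5 most alike. Members and lists were chosen with earlier results of these data known. Exons and neighbours are those of GENCODE vM21 on GRCm38.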

Additional observations from a re-analysis of the deposited data

Results flagged for a closer look

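The effect of treatment differed between the days, by the interaction term over all 12 libraries in DESeq2, for 4 of the 6 members tested. The Day 4 effect less the Day 2 effect on the log2 scale was -0.51 for *Prdm2* (DESeq2 adjusted p = 7.4e-07), whose counts were above EtOH at Day 2 and below it at Day 4 in 3 of 3 OHT libraries each. It was -0.33 for *Prdm4* (DESeq2 adjusted p = 1.63e-06), with the same directions in 3 of 3 OHT libraries on each day. The Day 2 difference of *Prdm4* was itself not called (DESeq2 adjusted p = 0.369). The share of all genes whose counts separate in this way was not determined. The values of -0.23 for *Prdm10* (DESeq2 adjusted p = 0.0216) and 0.23 for *Prdm14* (DESeq2 adjusted p = 0.0319) were the 2 that lost the threshold when single libraries were left out. Over all genes, 18.9% were called higher and 13.6% lower by the same term.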

How the results depend on the processing

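The rise of *Prdm10* was called under every alternative run, with log2 fold changes from 1.295 (effective length offsets) to 1.478 (total counts) at Day 2 and from 1.065 to 1.244 at Day 4. Leaving out a library gave 1.406 to 1.471 and 1.17 to 1.244, and effective length differences of 427 to 525 nt and 452 to 526 nt. The number of members called at Day 2 went from 2 to 1 with effective length offsets, rose to 3 with edgeR (*Prdm11*), and was 1 to 2 without a library. With edgeR it also rose from 4 to 5 for the interaction (*Prdm11*) and from 2 to 3 between the days in EtOH (*Prdm11*) and in OHT (*Prdm10*), the last also with total counts. It was 2 to 4 for the interaction and 1 to 2 for Day 4 against Day 2 in OHT without a library, and at Day 4 it was 4, or 3 with effective length offsets. The fit with the replicate number as a block (replicate block) called 1 member in place of 2 between the days in OHT (*Prdm2*, adjusted p = 0.059) and moved the *Prdm14* interaction to adjusted p = 0.0825; among the other named genes it ended the calls of *Dnmt3l* and *Prdm1* at Day 2. Over all genes it gave 655 higher and 647 lower at Day 2, against 1075 and 1258. Deviations of same-numbered libraries correlated between -0.231 and 0.121 in the treatment comparisons, and those of differently numbered libraries between -0.313 and 0.377. With 3 libraries per group, each centred on the group mean, these values cannot decide whether equal numbers mark pairs. The comparisons between the days were not checked in this way. Some values reversed, none of them called: *Prdm15* for the interaction (-0.043 with total counts, -0.018 with effective length offsets, and -0.028, -0.069, -0.005, -0.018 and -0.002 without single libraries, whose range reached 0.057), *Prdm15* between the days (-0.112 in EtOH and -0.127 in OHT with effective length offsets, -0.016 to 0.110 in OHT without single libraries) and *Prdm14* at Day 2 (-0.000 to 0.057 without single libraries, the former without Day2_EtOH replicate 3). The causes were not tested. Total counts turned the background of the interaction from 2191 higher and 1581 lower to 1675 and 2108. Checks on the other named genes were added after the data were seen. Depth limits *Prdm9* and *Prdm11*, and no reads per exon were analysed.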
